A study of Homo sapiens with 6 samples.

Results

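The genes described here are 32 components and targets of the Hippo pathway, chosen by symbol from 46427 genes counted by RNA-seq in Hs578T cells. This list was made with earlier results of these data known, so counts of calls in it describe the list and do not test it. Hs578T is a mesenchymal, triple-negative breast cancer cell line. The study knocked down CCN3 (also called NOV), a secreted matricellular protein, to find genes that depend on it. Of the 6 libraries, 3 came from shCCN3 cells, which carried a retroviral short hairpin RNA against CCN3, and 3 came from shCTRL cells, which carried a control hairpin. Both lines were grown in the same serum-containing medium and selected with puromycin, each group stood for 1 selected line with 1 hairpin, and nothing in the labels says that the 3 libraries of a group came from separate cultures, so the p-values measure the spread between these libraries, which may be technical.

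The Hippo pathway is a kinase relay that restrains the transcriptional coactivators YAP (gene YAP1) and TAZ (gene WWTR1). Cell contacts and junctional proteins feed into the MST kinases, these activate the LATS kinases with their cofactors SAV1 and MOB1, and LATS phosphorylation keeps YAP and TAZ out of the nucleus. In the nucleus YAP and TAZ bind TEAD factors on DNA and switch on genes of growth, adhesion and matrix. Among the genes switched on are some whose products restrain YAP and TAZ in turn, such as LATS2 and AMOTL2.

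TEAD factors recognize the letters GGAATG, so the 250 bases before each RefSeq start site were searched for GGAATG or its reverse complement CATTCC. Windows were at hand for 28 of the 32 genes, and 7 of these genes (25.0%) held 10 matches in all, against 13.4% of 12597 tested genes with a window. The motif too was chosen with earlier results of these data known, and the difference in share was not tested. These 9 stretches of 30 bases show every match among the 28 genes, read on the strand of the gene from RefSeq (GRCh38.p14), with the TEAD letters in capitals.
ANKRD1, match 220 bases before the start: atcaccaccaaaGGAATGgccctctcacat
ANKRD1, match 128 bases before the start: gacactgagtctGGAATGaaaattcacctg
AMOTL2, match 69 bases before the start: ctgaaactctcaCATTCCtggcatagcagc
AJUBA, match 59 bases before the start: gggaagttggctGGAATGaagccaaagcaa
NUAK2, match 197 bases before the start: tcccctagtcccCATTCCtggtgggcgggt
NUAK2, match 18 bases before the start: ttataacaacttGGAATGctgtgctttact
WWC2, matches 222 and 208 bases before the start: gctcaGGAATGcggcgcgaGGAATGcgcat
YAP1, match 162 bases before the start: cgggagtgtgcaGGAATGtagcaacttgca
PTPN14, match 200 bases before the start: cctcccgggccgCATTCCtccccgcccccg

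The ANKRD1 stretches lay at chr10:90921290-90921319 and chr10:90921198-90921227, the AMOTL2 stretch at chr3:134374499-134374528 and the AJUBA stretch at chr14:22976884-22976913, all on the minus strand. Those of NUAK2 lay at chr1:205321925-205321954 and chr1:205321746-205321775 and that of PTPN14 at chr1:214551785-214551814, also on the minus strand. WWC2 had its stretch at chr4:183099030-183099059 and YAP1 at chr11:102110273-102110302, both on the plus strand. The AJUBA match belonged to a start site 5.71 kb inside the outermost start of the gene, and the AMOTL2 match to one 0.97 kb inside. Of the 9 stretches, 4 touched an exon that GENCODE 29 gives to the same gene, and 2 touched an exon of another gene, WWC2-AS2 for WWC2 and AP001527.2 for YAP1. A match of these letters is a description of the window and not a measured binding site.

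Sequencing depth was similar in all libraries, with 56159110 to 68393177 counts each, and 17419 genes passed the filter on low counts, among them all 32 genes of the list. The targeted gene CCN3 read 103, 102 and 98.1 CPM (counts scaled to a common library size with edgeR's TMM factors) in shCTRL replicates 1 to 3 and 47.4, 47.2 and 46.5 CPM in shCCN3 replicates 1 to 3, a log2 fold change of -1.10 (SE 0.06, adjusted p = 1.34e-06, edgeR's quasi-likelihood test, p-values adjusted by Benjamini and Hochberg). The mesenchymal marker VIM was at 6744 to 7853 CPM, EPCAM and ESRP1 were at 0 in 5 libraries and the T cell marker CD3E in all 6, and ESR1, CDH1 and KRT19 were at most at 0.159, 0.143 and 0.196 CPM. The progesterone receptor gene PGR, low in triple-negative cells, stood at 2.64 to 4.65 CPM, the endothelial marker PECAM1 at 2.97 to 4.32 CPM and ERBB2 at 72.3 to 81.4 CPM. In each group 1 library was low for most of the 32 genes. shCCN3 replicate 2 was the lowest of its group for 25 of them (78.1%), against 42% of all genes tested, and shCTRL replicate 3 was the lowest control for 20 (62.5%), against 38.5%. The log2 level of shCCN3 replicate 2 against the mean of the other two shCCN3 libraries had a median of -0.20 over the 32 genes and of -0.01 over 12749 genes with an exon length and a mean of at least 1 CPM. With those genes split by exon length into 3 equal groups, the median went from 0.14 in the shortest to -0.14 in the longest group, and the 32 genes were long, with a median of 7.15 kb of exon against 5.08 kb. The part of exon length in the results was not tested.

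In the comparison of shCCN3 with shCTRL cells, 14 of the 32 genes were higher and 2 were lower at an adjusted p under 0.05 (edgeR's quasi-likelihood test, Benjamini-Hochberg adjustment over all genes tested), where 16.2% of all genes tested were called higher and 17.3% lower. ANKRD1 rose most, followed by VGLL3, AJUBA, NUAK2, AMOTL2, GADD45B, FRMD6, CRIM1, WWC2, LATS1, F3, LATS2, YAP1 and STK3, and NT5E and FJX1 fell. With a limit of at least 1.5-fold, 11 were higher and 2 lower, against 7.89% and 7.85% of all genes. The groups did not overlap for 14 genes that were higher in shCCN3 cells and 4 that were lower, against 22.7% and 23.6% of all genes, and with 3 libraries a side an exact permutation test of a single gene cannot go below p = 0.1. The log2 fold change was above 0 for 28 of the 32, against 8873 of the 17419 genes tested. Its median was 0.21 against 0.01 over all genes. Without shCCN3 replicate 2, 21 of the 32 were called higher and 2 lower, beside 3571 higher and 3658 lower of 17837 genes tested. Without shCTRL replicate 3, 11 were called higher and 2 lower, beside 2278 higher and 2405 lower of 17840 genes tested, and the counts of members were the same without shCCN3 replicate 1 or 3.

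**Figure D1:**
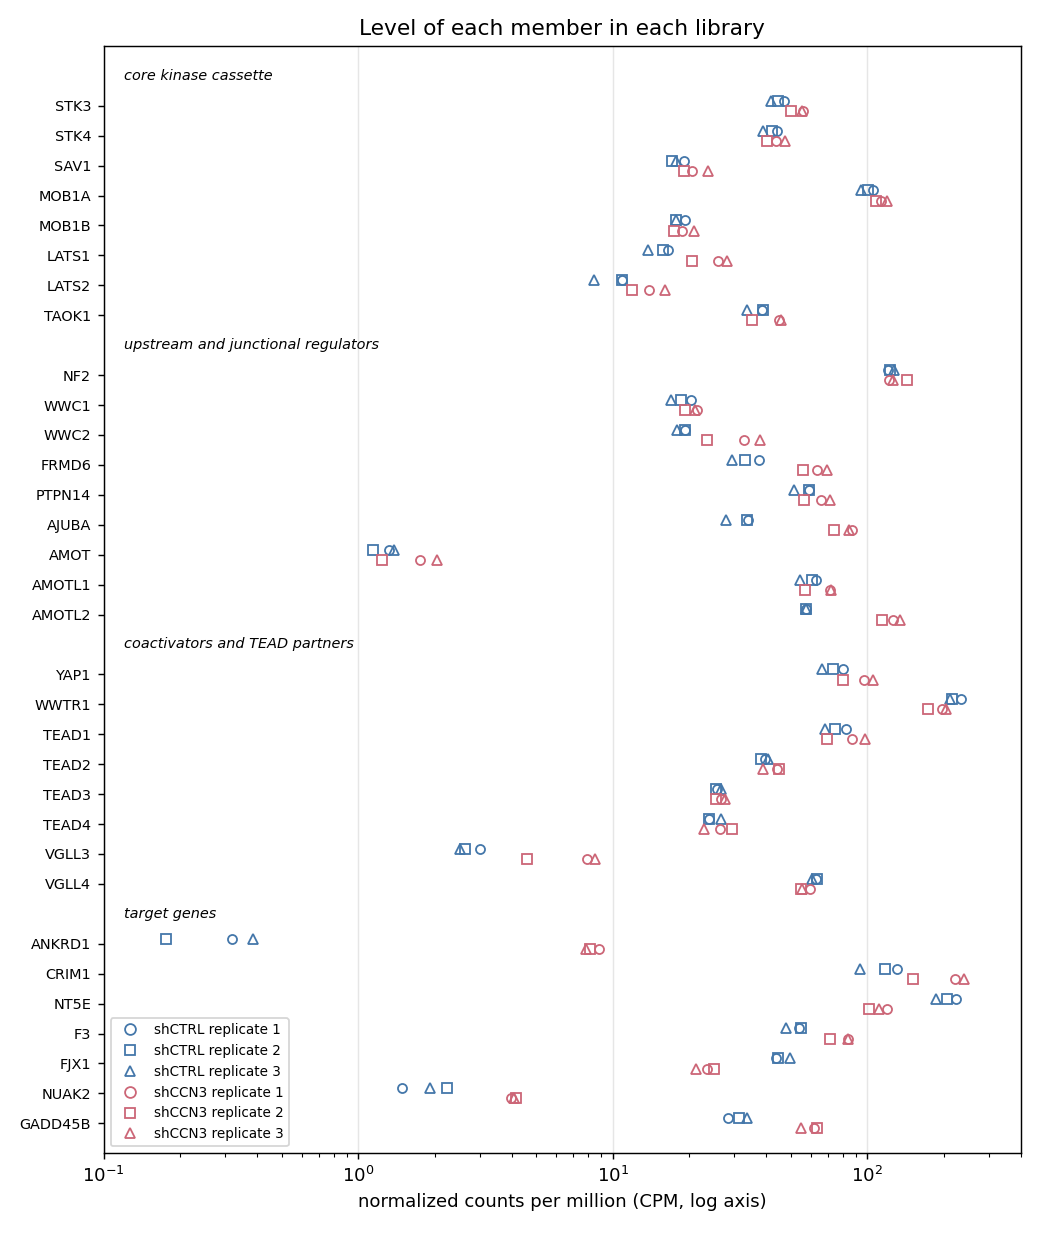
Level of each of the 32 genes in each library, in CPM on a log axis, grouped by role, with shCTRL libraries in blue, shCCN3 libraries in red and 1 marker shape per replicate number. ANKRD1 shows the widest gap between the groups, and shCCN3 replicate 2 (red squares) is the lowest red point for 25 of the 32 genes.

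Among the 7 target genes, 5 were called higher and 2 lower, where 16.2% of all genes tested were called higher and 17.3% lower. ANKRD1 encodes a cardiac ankyrin repeat protein and is one of the most used readouts of YAP/TAZ activity; it lies at chr10:90912096-90921087. It read 0.320, 0.175 and 0.387 CPM in shCTRL replicates 1 to 3 (22, 11 and 26 counts) and 8.82, 8.17 and 7.83 CPM in shCCN3 replicates 1 to 3 (608, 454 and 501 counts). It was barely counted in the control libraries, which stood at 11 counts or more. The floor was set at 3 counts, about the upper 95% limit for the mean behind a count of 0. Every shCCN3 library was far above the control libraries. The log2 fold change was 4.80 (SE 0.22, 95% confidence interval 4.31 to 5.28, adjusted p = 6.76e-07, edgeR's quasi-likelihood test), or 27.8-fold, with the group means at 0.294 ± 0.109 and 8.28 ± 0.502 CPM (SD, n = 3).

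NUAK2, a kinase related to AMPK, was also scarce in control cells, and lies at chr1:205302063-205321745. It read 1.48, 2.23 and 1.91 CPM in shCTRL replicates 1 to 3 and 3.99, 4.18 and 4.08 CPM in shCCN3 replicates 1 to 3. The shCCN3 libraries were nearly equal and all above the controls, with a log2 fold change of 1.12 (SE 0.16, adjusted p = 0.000704, edgeR's quasi-likelihood test). GADD45B encodes a small stress-response protein of the GADD45 family. Its levels were 28.3, 31.4 and 33.8 CPM in shCTRL replicates 1 to 3 and 61.8, 63.5 and 54.8 CPM in shCCN3 replicates 1 to 3. The rise was 1.93-fold (log2 0.95, SE 0.09, adjusted p = 4.16e-05, edgeR's quasi-likelihood test).

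CRIM1, a transmembrane protein that binds BMP ligands, varied more within its groups. It read 131, 117 and 93.9 CPM in shCTRL replicates 1 to 3 and 221, 151 and 239 CPM in shCCN3 replicates 1 to 3. The groups stayed apart, but shCCN3 replicate 2 lay much nearer to the controls than the other two, and the log2 fold change was 0.83 (SE 0.17, adjusted p = 0.00482, edgeR's quasi-likelihood test). F3, tissue factor, the cell surface starter of blood coagulation, read 54.0, 55.0 and 48.1 CPM in shCTRL and 83.9, 71.6 and 84.3 CPM in shCCN3 replicates 1 to 3. All 3 shCCN3 libraries were above every control library, by 0.61 on the log2 scale (SE 0.08, adjusted p = 0.000521, edgeR's quasi-likelihood test).

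The targets that fell were NT5E and FJX1. NT5E, at chr6:85450083-85495784, encodes CD73, the cell surface enzyme that makes adenosine from AMP, and it had the highest level per length of the 32 in control cells (45.3 ± 4.15 CPM per kb of exon, SD, n = 3). Its levels were 224, 206 and 186 CPM in shCTRL replicates 1 to 3 and 119, 102 and 112 CPM in shCCN3 replicates 1 to 3. Every shCCN3 library was below every control library, and the log2 fold change was -0.89 (SE 0.09, adjusted p = 5.78e-05, edgeR's quasi-likelihood test). The median over the 891 genes of chromosome 6 was 0.34, and over the 24 nearest tested neighbours of NT5E it was 0.05. FJX1, the human homolog of the fly gene four-jointed, lies at chr11:35618460-35620865 and read 43.7, 44.7 and 49.9 CPM in shCTRL and 23.5, 25.0 and 21.3 CPM in shCCN3 replicates 1 to 3. It fell to 0.505 of its control level (log2 -0.98, SE 0.08, adjusted p = 2.81e-05, edgeR's quasi-likelihood test).

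The upstream and junctional regulators, which pass contact and cytoskeletal signals to the kinases, had 4 of 9 called higher and none lower. Of all genes tested, 16.2% were called higher and 17.3% lower. All 9 log2 fold changes were above 0, as were 8873 of the 17419 genes tested, and their median was 0.39. AJUBA is a LIM domain protein of adherens junctions that holds the LATS kinases in check, and lies at chr14:22971177-22982551. It read 34.1, 33.7 and 27.9 CPM in shCTRL replicates 1 to 3 and 87.0, 74.3 and 84.8 CPM in shCCN3 replicates 1 to 3. Every shCCN3 library was far above the controls, and the log2 fold change was 1.36 (SE 0.10, adjusted p = 8.71e-06, edgeR's quasi-likelihood test).

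AMOTL2 is an angiomotin family member, a scaffold that binds YAP and TAZ and holds them at junctions, and it lies at chr3:134355345-134375417. It read 57.3, 57.6 and 57.4 CPM in shCTRL replicates 1 to 3 and 126, 114 and 135 CPM in shCCN3 replicates 1 to 3. The control libraries were almost the same and the rise was 2.18-fold (log2 1.12, SE 0.07, adjusted p = 4.73e-06, edgeR's quasi-likelihood test). Its relatives moved less: AMOTL1 had 59.3 ± 4.26 CPM in shCTRL and 66.8 ± 8.65 CPM in shCCN3 cells (SD, n = 3), and AMOT had 1.29 ± 0.124 and 1.68 ± 0.401 CPM, neither past the test (adjusted p = 0.222 and 0.206, edgeR's quasi-likelihood test). AMOT had the widest interval of the genes that were not called, from -0.10 to 0.87 on the log2 scale.

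FRMD6, a FERM domain protein also called Willin, read 37.5, 33.2 and 29.4 CPM in shCTRL replicates 1 to 3 and 63.3, 55.8 and 69.2 CPM in shCCN3 replicates 1 to 3. The groups were well apart, with a log2 fold change of 0.91 (SE 0.11, adjusted p = 0.000183, edgeR's quasi-likelihood test). WWC2, a relative of KIBRA that activates the LATS kinases, read 19.2, 19.2 and 17.9 CPM in shCTRL and 32.9, 23.5 and 37.8 CPM in shCCN3 replicates 1 to 3. The shCCN3 libraries were spread widely but all above the controls, with a log2 fold change of 0.74 (SE 0.15, adjusted p = 0.00435, edgeR's quasi-likelihood test). On the other strand, exons of CLDN22 cover 25.9% of the WWC2 exon sequence, and whether the counting used strand is not given in the sources used here, so reads from the 2 genes may not have been told apart. WWC1 (KIBRA itself), NF2 (merlin, which brings LATS to the membrane) and PTPN14 (a phosphatase that binds YAP) had log2 fold changes of 0.14, 0.07 and 0.19 and did not pass the test. NF2 had the highest level per length of the 9 in control cells, at 17.3 ± 0.507 CPM per kb of exon, against 18.2 ± 1.62 CPM per kb in shCCN3 cells (SD, n = 3), and the interval of its log2 fold change reached from -0.09 to 0.24.

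In the core kinase cassette all 8 log2 fold changes were above 0, as were 8873 of the 17419 genes tested, and their median was 0.21. Of the 8, 3 (37.5%) were called higher, against 16.2% of all genes tested, and none lower, against 17.3%. LATS1 read 16.5, 15.7 and 13.7 CPM in shCTRL replicates 1 to 3 and 25.9, 20.5 and 28.1 CPM in shCCN3 replicates 1 to 3. It rose 1.62-fold (log2 0.70, SE 0.12, adjusted p = 0.00202, edgeR's quasi-likelihood test). LATS1 lies on chromosome 6, where the median log2 fold change of 891 genes was 0.34 and that of its 24 nearest tested neighbours 0.35, and above the chromosome's median its own value was 0.36; the part of the chromosome in the result was not tested.

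LATS2, the paralog that is itself a YAP/TAZ target, read 10.9, 10.8 and 8.43 CPM in shCTRL and 13.9, 11.9 and 16.0 CPM in shCCN3 replicates 1 to 3. The groups did not overlap, and the log2 fold change was 0.47 (SE 0.14, adjusted p = 0.0242, edgeR's quasi-likelihood test). STK3 (the kinase MST2) had the smallest rise that was called, with 47.1, 44.7 and 41.9 CPM in shCTRL and 55.9, 50.4 and 55.6 CPM in shCCN3 replicates 1 to 3. Its log2 fold change was 0.28 (SE 0.07, adjusted p = 0.0154, edgeR's quasi-likelihood test). With 5 libraries in the same edgeR fit, the call of LATS2 was lost without shCTRL replicate 3 (log2 0.36, adjusted p = 0.0735), shCCN3 replicate 1 (0.48, adjusted p = 0.065) or shCCN3 replicate 3 (0.36, adjusted p = 0.087). That of STK3 was lost without shCTRL replicate 2 (log2 0.28, adjusted p = 0.0629), shCTRL replicate 3 (0.24, adjusted p = 0.0625), shCCN3 replicate 1 (0.25, adjusted p = 0.0669) or shCCN3 replicate 3 (0.26, adjusted p = 0.0536).

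The other kinases and scaffolds were not called. MOB1A, the more abundant MOB1 adaptor of LATS, had levels that did not overlap, 100.2 ± 5.60 CPM in shCTRL and 114 ± 5.71 CPM in shCCN3 cells (SD, n = 3), at an adjusted p of 0.0571 by edgeR's quasi-likelihood test and 0.037 by DESeq2. STK4 (MST1) and MOB1B differed by 0.07 and 0.06 on the log2 scale, with intervals of -0.11 to 0.25 and -0.13 to 0.25. SAV1, the scaffold of the MST kinases, and TAOK1, a kinase that activates them, differed by 0.23 and 0.18 (adjusted p = 0.0994 and 0.23, edgeR's quasi-likelihood test). Without shCCN3 replicate 2, MOB1A, SAV1, TAOK1, PTPN14, AMOT, AMOTL1 and TEAD1 were called higher, at adjusted p-values of 0.0153, 0.0192, 0.00871, 0.0114, 0.0395, 0.00793 and 0.0161 in the same edgeR fit.

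Of the 8 coactivators and TEAD partners, YAP1 and VGLL3 (25.0%) were called higher, against 16.2% of all genes tested. None was called lower, against 17.3%, and the median was 0.09. VGLL3 is a vestigial-like cofactor of TEAD and lies at chr3:86937973-86991149. It read 3.01, 2.63 and 2.50 CPM in shCTRL replicates 1 to 3 and 7.94, 4.61 and 8.54 CPM in shCCN3 replicates 1 to 3. The rise was 2.59-fold (log2 1.37, SE 0.22, adjusted p = 0.00117, edgeR's quasi-likelihood test), with shCCN3 replicate 2 well under the other two. YAP1 read 80.3, 73.2 and 66.2 CPM in shCTRL and 96.9, 80.2 and 106 CPM in shCCN3 replicates 1 to 3. The groups touched, since shCCN3 replicate 2 was just under shCTRL replicate 1, and the log2 fold change was 0.36 (SE 0.11, adjusted p = 0.0277, edgeR's quasi-likelihood test). That call was lost without shCTRL replicate 2 (log2 0.37, adjusted p = 0.0882), shCTRL replicate 3 (0.30, adjusted p = 0.0956), shCCN3 replicate 1 (0.34, adjusted p = 0.0876) or shCCN3 replicate 3 (0.27, adjusted p = 0.0974), in the same edgeR fit. The median log2 fold change was 0.22 over the 24 nearest tested neighbours of YAP1 and 0.02 over chromosome 11. The part of position in the YAP1 value was not tested.

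WWTR1, which encodes TAZ, went the other way from YAP1 without passing the test. It read 233, 214 and 211 CPM in shCTRL replicates 1 to 3 and 197, 173 and 203 CPM in shCCN3 replicates 1 to 3. All shCCN3 libraries were below all control libraries, at a log2 fold change of -0.20 (SE 0.08, adjusted p = 0.0709 by edgeR's quasi-likelihood test and 0.0496 by DESeq2). VGLL4, which competes with YAP for TEAD, was likewise lower in each shCCN3 library, 62.3 ± 1.65 against 56.5 ± 2.58 CPM (SD, n = 3; adjusted p = 0.108, edgeR's quasi-likelihood test), and exons on the other strand, of ATG7 among others, cover 23.7% of its exon sequence. The DNA-binding partners TEAD1, TEAD2, TEAD3 and TEAD4 had log2 fold changes of 0.17, 0.11, 0.03 and 0.08. Their intervals were -0.10 to 0.45, -0.05 to 0.27, -0.12 to 0.18 and -0.14 to 0.30, and TEAD3 lies on chromosome 6, whose median was 0.34.

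**Figure D2:**
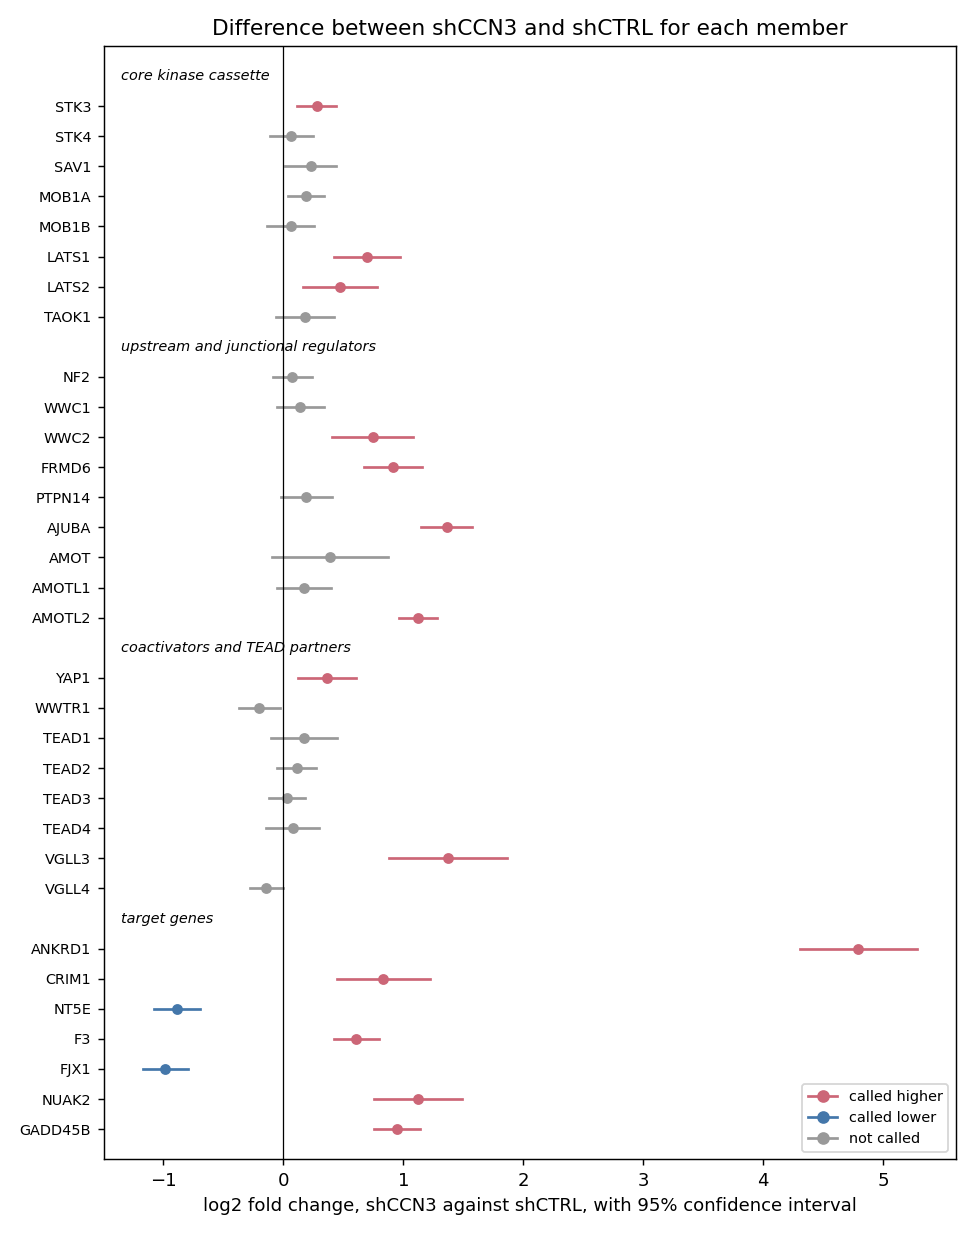
Log2 fold change of shCCN3 against shCTRL for each of the 32 genes with its 95% confidence interval, grouped by role and coloured by call at an adjusted p under 0.05. The 14 red points are genes called higher, the 2 blue ones are NT5E and FJX1, called lower, and the other 16 are grey, and ANKRD1 at 4.80 lies far to the right of the others.

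To compare paralogs with each other, levels were divided by exon length (GENCODE 29) and each gene was given as a share of its family in each library. In control cells TAZ was the main coactivator transcript, with WWTR1 at 26.1 ± 1.42 and YAP1 at 11.6 ± 1.12 CPM per kb (SD, n = 3). In shCCN3 cells the levels were 22.7 ± 1.90 and 15.0 ± 2.06 CPM per kb. The YAP1 share of the pair was 31.5%, 31.3% and 29.5% in shCTRL replicates 1 to 3 and 39.6%, 38.2% and 41.0% in shCCN3 replicates 1 to 3, so the groups were apart by 8.82 percentage points on average. Here shCCN3 replicate 2 lay with its group.

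The angiomotin family showed the widest shift. AMOTL2 made up 59.9%, 61.0% and 63.1% of the family's level in shCTRL replicates 1 to 3 and 74.3%, 76.6% and 75.2% in shCCN3 replicates 1 to 3. AMOTL1 correspondingly took 37.7 ± 1.72% and 23.9 ± 1.12%, and AMOT stayed under 1.1% in every library. The WWC1 share of WWC1 and WWC2 was 49.5 ± 1.44% in shCTRL and 39.8 ± 4.64% in shCCN3 cells (SD, n = 3).

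Smaller shifts were seen in the kinases. LATS1 had 49.7 ± 1.46% of the LATS level in shCTRL and 53.5 ± 1.02% in shCCN3 cells, STK3 had 43.4 ± 0.259% and 47.0 ± 1.15% of the MST level, and MOB1A had 88.2 ± 0.323% and 89.1 ± 0.370% of the MOB1 level (SD, n = 3). The paralogs of each pair lie on different chromosomes. With the chromosome's median taken off, the log2 fold change was 0.36 for LATS1 and 0.43 for LATS2. It was 0.17 for STK3 and 0.19 for STK4, and 0.17 for MOB1A and 0.007 for MOB1B. The part of the chromosomes in the shares was not tested. In these 5 two-gene families and for all 3 angiomotins the libraries of the groups did not overlap, and the exact two-sided permutation test gave p = 0.1 for each, the smallest p that 3 against 3 libraries allow (0.15 after Benjamini-Hochberg adjustment over 12 shares). The TEAD shares overlapped between the groups. TEAD2 was the most abundant TEAD transcript per length in control cells, at 13.3 ± 0.419 CPM per kb, before TEAD4 at 10.9 ± 0.709, TEAD3 at 8.50 ± 0.189 and TEAD1 at 7.33 ± 0.709 CPM per kb. The shCCN3 means kept that order, at 14.3 ± 1.06, 11.5 ± 1.42, 8.70 ± 0.337 and 8.25 ± 1.42 CPM per kb (SD, n = 3), and there TEAD3 and TEAD1 did not differ beyond their spread. That order depends on the lengths, which join all annotated exons of a gene and not only those used in these cells. In CPM without division by length, the shCTRL means were 75.3 for TEAD1, 39.5 for TEAD2, 25.9 for TEAD3 and 24.8 for TEAD4.

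A further 45 genes of the pathway, outside the 32, were examined in the same way, and 38 of them passed the filter and were tested. Of these, 6 were called higher (15.8%) and 7 lower (18.4%), close to the 16.2% and 17.3% of all genes tested, with a median log2 fold change of 0.02. The largest rises were those of STK38 and STK38L, the NDR kinases related to LATS (log2 0.81 and 0.60, adjusted p = 1.62e-05 and 0.00122, edgeR's quasi-likelihood test), and of WTIP, a LIM protein of the same family as AJUBA (0.76, adjusted p = 0.000106). STK38 went from 43.8 ± 2.27 to 77.1 ± 2.21 CPM (SD, n = 3) and lies on chromosome 6, whose median was 0.34. The largest falls were those of RASSF2 and RASSF4, which belong to a family of MST-binding proteins, and of TNIK, a MAP4K family kinase (log2 -0.72, -0.63 and -0.47, adjusted p = 0.0158, 0.000947 and 0.00846, edgeR's quasi-likelihood test). The count of rises in this list was 3 without shCTRL replicate 2 or 3 or shCCN3 replicate 1 or 3. In those fits, in that order, 2044, 2278, 2161 and 2280 of 17818 to 17854 genes tested were called higher.

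All 24 other genes examined as widely listed YAP/TAZ targets were tested, and 11 were called higher (45.8%) and 5 lower (20.8%), with a median of 0.18. Of all genes tested, 16.2% were called higher and 17.3% lower. Without a fold limit, the share of falls was thus close to that of all genes. At 1.5-fold or more, 9 of the 24 were higher and 4 lower, against 7.89% and 7.85% of all genes. The matricellular genes CCN2 and CCN1 rose, CCN2 from 50.8 ± 2.59 to 465 ± 23.6 CPM and CCN1 from 184 ± 5.56 to 614 ± 15.1 CPM (SD, n = 3), with log2 fold changes of 3.19 and 1.74. EDN1, which encodes endothelin, had 0.640, 1.42 and 1.31 CPM in shCTRL and 10.8, 9.99 and 9.73 CPM in shCCN3 replicates 1 to 3, a log2 fold change of 3.18 (SE 0.23, adjusted p = 1.18e-05, edgeR's quasi-likelihood test). The largest falls were those of IGFBP3, an IGF-binding protein, FOXF2, a forkhead factor, and TNS1, a tensin of focal adhesions, with log2 fold changes of -1.16, -0.90 and -0.69. IGFBP3 lies on chromosome 7, where the median over genes was -0.43, and CCN2, EDN1 and FOXF2 lie on chromosome 6, where it was 0.34. Like the 7 targets of the main list, this list held both rises and falls.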

How the data were processed

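Total RNA of Hs578T shCTRL and shCCN3 cells (3 libraries each) was made into libraries with a stranded mRNA kit and sequenced on an Illumina NovaSeq. The authors deposited 1 table of raw read counts per gene with NCBI Gene IDs and symbols. The submitters' processing notes name bcl2fastq 2.20.0, Trimmomatic, HISAT2 2.1.0, StringTie 2.1.3d, DESeq2 and the build GRCh38; the annotation and the use of strand in counting are not given in the sources used here. Reads carry no molecular identifiers, so copies of 1 molecule cannot be told from separate molecules. The precision that depth gives covers counting error at most.

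The deposited counts were tested with edgeR 4.0.16 (R 4.3.3): filterByExpr by group, TMM factors, the quasi-likelihood test of shCCN3 against shCTRL and Benjamini-Hochberg adjustment over 17419 genes, with calls at an adjusted p under 0.05. Standard errors are the log2 fold change over the square root of the F statistic. The fit was also run on simulated counts with known changes. These were drawn independently for each gene and library, so they hold no shared shift like that of shCCN3 replicate 2. Exon lengths came from GENCODE 29 through NCBI Gene IDs (all 32 genes matched), and gene positions and promoter windows from RefSeq GRCh38.p14. No protein sequences were used here. Alternatives were DESeq2 1.42.0, other size factors, other filters, a replicate block, a fold limit, each library left out, and, for the shares, no division by length.

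All 32 genes are named in the text. Of the other lists, up to 3 called genes per direction are named, taken by size of change among those whose groups did not overlap and whose mean was 1 CPM or more, and CCN3, CCN1 and CCN2 are named besides. The gene list, the other lists and the TEAD motif were chosen with earlier results of these data known.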

Additional observations from a re-analysis of the deposited data

How the results depend on the processing

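Of the 16 called genes, 13 kept their call in all 12 alternative fits and LATS2, STK3 and YAP1 lost it in 3, 4 and 4 of the fits that left out 1 library, at values given above. The members called were 14 higher and 2 lower with the replicate block, which changed no member's call. DESeq2 called 15 higher and 3 lower, with MOB1A and WWTR1 added. Over all genes, the block called 2331 higher and 2556 lower of 17419 tested, and DESeq2 2893 and 3062 of 21006. Leaving out 1 library at a time gave 11 to 21 members higher and 2 lower. Over all genes tested, these fits called 2044 to 3571 higher and 2137 to 3658 lower. The other Hippo pathway genes numbered 3 to 8 higher and 5 to 7 lower with 1 library left out, and 4 higher and 6 lower with the replicate block. At 1.5-fold or more they numbered 3 higher and 2 lower, against 7.89% and 7.85% of all genes tested. The other YAP/TAZ targets stayed at 9 to 12 higher and 4 or 5 lower under every alternative. Their lowest counts were those at 1.5-fold or more. With 1 library left out, MOB1B ranged from -0.008545 to 0.12 and TEAD4 from -0.005477 to 0.17 on the log2 scale, both without passing the test. Above its chromosome's median, STK3 stood at 0.17, STK4 at 0.19, LATS1 at 0.36, TEAD3 at -0.31 and NT5E at -1.23. Without division by exon length, the differences in share were 16.0 percentage points for AMOTL2 and -15.8 for AMOTL1. Same-numbered libraries did not deviate together (correlations of 0.08, -0.02 and -0.03 across genes), and shCCN3 replicate 2 correlated best with shCTRL replicate 3 (0.12), so the numbers were not taken as pairs. At 11 to 26 counts, the control level of ANKRD1 limits the precision of its fold change.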
